A study of Mus musculus with 6 samples.

Results

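The genes that make, carry and sense retinoic acid were examined in RNA-seq data from the atrioventricular canal (AVC) of mouse embryos with and without the basic helix-loop-helix transcription factor Scleraxis (Scx). The genes were chosen by name for their roles in the pathway, with earlier results of these data known. Rdh10, Dhrs3, Aldh1a1 and Aldh1a2 act on retinol and retinal, Stra6 and Crabp2 carry retinoids, and Rara, Rarg and Rxra are receptors. The table holds 8 of these 9 genes among its 18810, and Stra6 is not listed in the table used here. AVC regions with the mitral, tricuspid and aortic valves were dissected at embryonic day 15.5 from 3 Scx-/- and 3 Scx+/+ littermates of the C57BL/6 strain, and 1 library was sequenced per embryo. Scx-/- embryos are null for Scx and Scx+/+ embryos are wild type; no other allele or treatment is given for either genotype. The comparison asks how the loss of Scx alters RNA levels in the remodeling valves. The tissue was not sorted, so that fewer cells of a type and less RNA per cell cannot be told apart.

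Retinoic acid is made from vitamin A in a pair of oxidation steps. Rdh10 oxidizes retinol to retinal, Dhrs3 reduces retinal back to retinol, and the aldehyde dehydrogenases Aldh1a1 and Aldh1a2 oxidize retinal to retinoic acid. Stra6 is a membrane receptor that takes up retinol, Crabp2 delivers retinoic acid to the nucleus, and the receptors bind DNA as heterodimers of a retinoic acid receptor (Rara, Rarb, Rarg) with a retinoid X receptor (Rxra, Rxrb, Rxrg). In the embryonic heart Aldh1a2 is best known from the epicardium, and retinoid signaling through Rxra is needed for the growth of the ventricular wall.

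Promoter sequence is shown for Aldh1a1 and Aldh1a2, the pair of genes called higher in Scx-/- samples, because Scx belongs to a factor family that binds the letters CANNTG (the E-box), which are in capitals. Each run is the 250 bases before the transcript start in mm9, on the plus strand, and lies outside the exons of the gene.
Aldh1a1, chr19:20676201-20676450: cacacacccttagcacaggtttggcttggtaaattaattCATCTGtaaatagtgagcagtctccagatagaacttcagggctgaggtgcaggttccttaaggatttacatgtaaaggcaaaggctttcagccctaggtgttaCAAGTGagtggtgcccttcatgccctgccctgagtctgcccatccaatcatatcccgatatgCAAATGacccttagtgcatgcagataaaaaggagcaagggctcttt
Aldh1a2, chr9:71063346-71063595: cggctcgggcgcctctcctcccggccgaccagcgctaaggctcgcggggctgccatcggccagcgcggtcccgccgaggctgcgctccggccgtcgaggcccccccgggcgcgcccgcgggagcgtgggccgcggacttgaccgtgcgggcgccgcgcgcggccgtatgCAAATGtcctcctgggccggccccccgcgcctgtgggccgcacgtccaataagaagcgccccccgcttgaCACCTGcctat
A search of both strands found 3 matches before Aldh1a1, of which CATCTG began 211 bases, CAAGTG 108 bases and CAAATG 46 bases before the start. Before Aldh1a2 it found 2 matches, CAAATG at 81 and CACCTG at 11 bases before the start. The letters CANNTG are common, as 59.2% of 31831 such windows of 13531 protein-coding genes held at least 1 match. CATCTG, which is contained in CANNTG, was in 11.2% of windows. Of the listed genes not called, Crabp2, Dhrs3, Rara, Rarg and Rxra also held CANNTG before a transcript start, and Rdh10 did not. CATCTG was also found before Rara, Rarg and Rxra. The matches are matches of letters and were not tested for binding.

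Retinoic acid receptor heterodimers bind direct repeats of a short core site, searched here as AGGTCA or in its variant forms (GGGTCA with the first letter changed, AGTTCA with another letter changed and GGTTCA with both). A pair of core sites with 5 bases between them was in 0.0597% of windows and in no window of the 8 listed genes, nor were pairs with 1 or 2 bases between them. Single core sites are common, as 33.9% of windows held at least 1. GGGTCA on the minus strand was found 42 bases before the start of Aldh1a1, overlapping its CAAATG, and no core site before Aldh1a2. Single core sites also lay before a transcript start of Crabp2, Rara, Rarg and Rxra, which were not called. The receptor gene Rarb, a textbook target of retinoic acid, held the 5-base repeat 57 bases before 1 of its 2 transcript starts. The 80 bases before that start are shown on the minus strand, with both core sites and the bases between them in capitals.
Rarb, chr14:17407987-17408066: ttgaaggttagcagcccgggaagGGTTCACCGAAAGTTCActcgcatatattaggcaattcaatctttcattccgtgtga

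Values are RPKM, read counts scaled for exon length and for sequencing depth. The libraries held 46429972 to 68570997 reads, and values of 10 reads or fewer appear in the table as a common fill-in value of 0.0949 RPKM. The median log2 fold change (Scx-/- minus Scx+/+) of all 18810 genes was 0.105, and it was -0.0045 after the library medians were set to 0. The 10 genes with the highest values took 56.9% of all RPKM in Scx+/+ replicate 2, and 30.7% to 43.9% in the other 5 libraries. Scx itself did not separate the genotypes: it measured 33.6, 18.6 and 82.9 RPKM in Scx-/- replicates 1 to 3 and 29.5, 58.3 and 26.0 RPKM in Scx+/+ replicates 1 to 3. A value for the whole gene does not check the labels, because the null allele was checked by the study through exon 1.

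Of the 8 listed retinoic acid genes, Aldh1a1 and Aldh1a2 were higher in Scx-/- samples at an unadjusted p below 0.05 (limma on log2(RPKM + 0.1), two-sided) and none was lower. The study had already reported both as higher from these same libraries, and the genes were chosen with earlier results known. The count of calls is therefore a description and not independent support. Of all 18810 genes 2.82% were called higher, 1.06% were called lower and 3.89% in either direction. No gene of the table was called after Benjamini-Hochberg adjustment (0.00%), so both calls rest on unadjusted p-values. All 3 Scx-/- values lay above all 3 Scx+/+ values for the same 2 genes, as for 7.19% of all genes, and none of the 8 showed the reverse, as 2.31% of all genes did (9.50% in either direction). Of the 8 log2 fold changes 5 were above 0, beside 63.8% of all genes. Their median was 0.65 beside 0.105 for all genes. With library medians set to 0 it was 0.54 beside -0.0045, and only Aldh1a1 of the 8 was called, beside 3.43% of all genes. The median depended on low genes and on single libraries. It was 0.24 beside 0.076 with 1 instead of 0.1 added to RPKM. Among genes averaging 1 RPKM or more, which leaves out Crabp2 and Rarg, it was 0.28 beside 0.112, with 3 above 0. It was 0.24 beside 0.072 without Scx+/+ replicate 3 and 0.85 beside 0.138 without Scx+/+ replicate 1. The 8 values ranged from -0.32 for Dhrs3 to 1.21 for Aldh1a1.

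**Figure D1:**
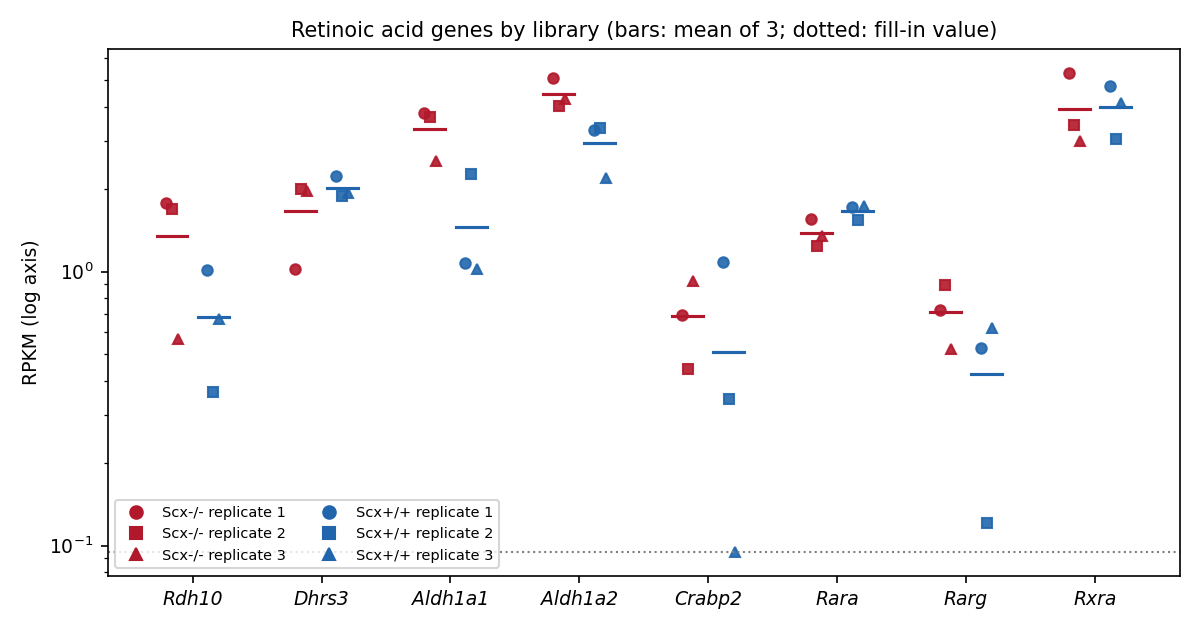
RPKM (log axis) of the 8 listed retinoic acid genes in each library, with Scx-/- in red and Scx+/+ in blue, horizontal bars at the mean of 3 libraries and a dotted line at the fill-in value of 0.0949 RPKM. The genotypes do not overlap for Aldh1a1 and Aldh1a2 and overlap for the other 6 genes.

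Aldh1a1 (ENSMUSG00000053279, mm9 chr19:20676451-20717952, plus strand, 13 exons) is a cytosolic retinal dehydrogenase. Its level was 3.79, 3.66 and 2.53 RPKM in Scx-/- replicates 1 to 3 and 1.07, 2.27 and 1.02 RPKM in Scx+/+ replicates 1 to 3. Scx-/- replicates 1 and 2 were the highest and Scx+/+ replicates 1 and 3 the lowest, while Scx-/- replicate 3 and Scx+/+ replicate 2 lay close together between them. Mean levels were 3.33 ± 0.69 RPKM in Scx-/- and 1.45 ± 0.70 RPKM in Scx+/+ samples (SD, n = 3 each), a 2.29-fold ratio. The log2 fold change was 1.21 with a standard error of 0.36 and a 95% interval of 0.39 to 2.03, at an unadjusted p of 0.0089 and an adjusted p of 0.967 (limma). An exact permutation test gave p = 0.1, the smallest that 3 against 3 libraries allow. The values rested on 132 to 503 reads per library. With library medians set to 0 the log2 fold change was 1.10 (limma, unadjusted p = 0.013). In rat valve interstitial cells made to overexpress Scx, the study found no change of Aldh1a1 by qPCR. The study proposes that this may reflect differences between those cultures and the embryonic mouse tissue.

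The call for Aldh1a1 held under all 11 other settings that kept every library, with log2 fold changes of 0.84 to 1.27. Leaving out 1 library at a time gave 1.02 to 1.56, and the call was lost without Scx-/- replicate 2 (1.13, limma unadjusted p = 0.056), Scx+/+ replicate 1 (1.05, unadjusted p = 0.051) or Scx+/+ replicate 3 (1.02, unadjusted p = 0.057). Mouse Aldh1a7 lies on the minus strand of the same chromosome at chr19:20767443-20802052 and is a near copy of Aldh1a1. The coding sequences were identical at 91.6% of 1506 positions, and 7.53% of the 50-base windows of the Aldh1a1 transcript occur unchanged in Aldh1a7. Aldh1a7 measured 0.490, 1.29 and 0.438 RPKM in Scx-/- and 0.210, 0.782 and 0.127 RPKM in Scx+/+ replicates, on 18 to 179 reads. The genotypes overlapped for Aldh1a7 (log2 fold change 0.94, standard error 0.65, limma unadjusted p = 0.184, adjusted p = 0.967). The sum of Aldh1a1 and Aldh1a7, taken after their values were seen, was 4.28, 4.95 and 2.97 RPKM in Scx-/- and 1.28, 3.05 and 1.15 RPKM in Scx+/+ replicates, so that Scx+/+ replicate 2 exceeded Scx-/- replicate 3 (exact permutation p = 0.2). How the counting split reads between these copies was not tested.

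Aldh1a2 (ENSMUSG00000013584, mm9 chr9:71063596-71144050, plus strand, 14 exons) is the main retinoic acid synthase of the early embryo. It measured 5.10, 4.02 and 4.27 RPKM in Scx-/- replicates 1 to 3 and 3.30, 3.33 and 2.20 RPKM in Scx+/+ replicates 1 to 3. All 3 Scx-/- libraries lay above the highest Scx+/+ library, with the smallest gap between Scx-/- replicate 2 and Scx+/+ replicate 2. Means were 4.46 ± 0.57 and 2.94 ± 0.64 RPKM (SD, n = 3 each), a 1.51-fold ratio. The log2 fold change was 0.60 with a standard error of 0.25 and a 95% interval of 0.024 to 1.18 (limma, unadjusted p = 0.043, adjusted p = 0.967; exact permutation p = 0.1), from 342 to 609 reads per library. With library medians set to 0 it was 0.49 at an unadjusted limma p of 0.056, so the call for Aldh1a2 was lost when the upward shift of all genes was removed. It was lost in 5 of the 11 other settings that kept every library, and in 5 of 6 fits that left out 1 library, the exception being the fit without Scx+/+ replicate 2.

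**Figure D2:**
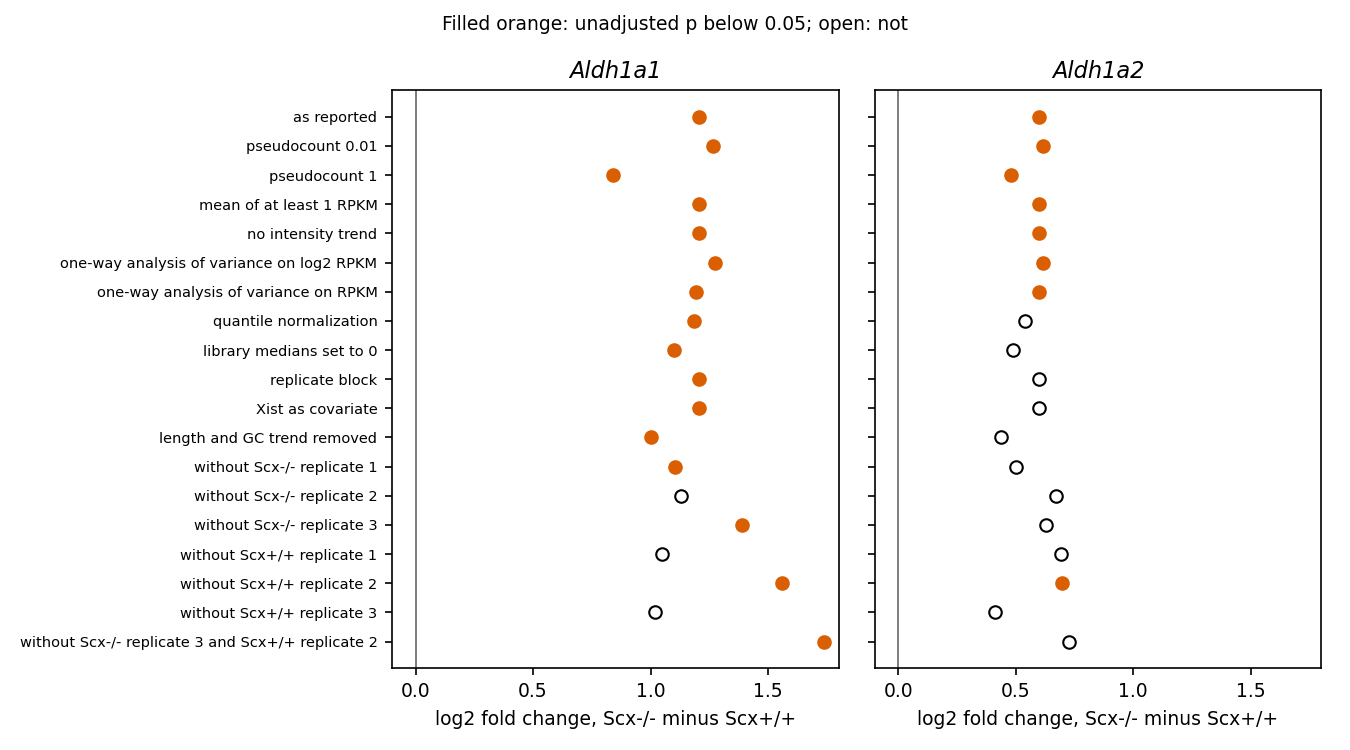
Log2 fold change (Scx-/- minus Scx+/+) of Aldh1a1 (left) and Aldh1a2 (right) as reported and under each other setting, with filled orange points at an unadjusted p below 0.05 and open points otherwise. Every point lies above 0; the points of Aldh1a1 range from 0.84 to 1.74 and those of Aldh1a2 from 0.41 to 0.73.

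Within a library the ratio of both dehydrogenases does not depend on library scaling. Aldh1a2 exceeded Aldh1a1 in all 6 libraries, by 1.10 to 1.69 times in Scx-/- and 1.47 to 3.08 times in Scx+/+ samples. The log2 ratio of Aldh1a1 to Aldh1a2 was -0.42, -0.13 and -0.73 in Scx-/- and -1.54, -0.54 and -1.04 in Scx+/+ replicates. The ratios overlapped between genotypes, and the difference of 0.61 was not called (exact permutation p = 0.2). Their summed level was 8.89, 7.67 and 6.79 RPKM in Scx-/- and 4.37, 5.60 and 3.23 RPKM in Scx+/+ replicates. The sums did not overlap and differed by 3.39 RPKM (exact permutation p = 0.1). Since both genes entered the sum with their difference known, the sum is given as a description.

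Rdh10 (mm9 chr1:16095855-16123815, plus strand) catalyses the first, rate-limiting oxidation of retinol. It measured 1.78, 1.69 and 0.567 RPKM in Scx-/- replicates 1 to 3 and 1.01, 0.362 and 0.673 RPKM in Scx+/+ replicates 1 to 3. Scx-/- replicates 1 and 2 lay above every Scx+/+ library and Scx-/- replicate 3 lay among them. The log2 fold change of 0.83 had a standard error of 0.53 and an interval of -0.37 to 2.04 (limma, unadjusted p = 0.152, adjusted p = 0.967), from 70 to 471 reads. Without Scx-/- replicate 3 it was 1.32 and passed the threshold (limma, unadjusted p = 0.033).

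Dhrs3 (mm9 chr4:144482730-144518112, plus strand), the reductase that opposes Rdh10, measured 1.03, 1.99 and 1.96 RPKM in Scx-/- and 2.23, 1.89 and 1.93 RPKM in Scx+/+ replicates. Apart from Scx-/- replicate 1, which was the lowest, the libraries lay close together. The log2 fold change was -0.32 (standard error 0.33, interval -1.07 to 0.44, limma unadjusted p = 0.364, adjusted p = 0.967). Of 15 other named enzymes of retinol and retinal 8 are listed, none was called, 5 were above 0 and their median log2 fold change was 0.084 beside 0.105 for all genes. Rdh11, a retinal reductase, measured 10.1, 11.1 and 8.57 RPKM in Scx-/- and 7.76, 8.25 and 5.84 RPKM in Scx+/+ replicates. It was the only 1 of the 8 without overlap between genotypes (log2 fold change 0.45, standard error 0.21, limma unadjusted p = 0.062, adjusted p = 0.967), and it passed the threshold without Scx+/+ replicate 2 and without Scx-/- replicate 3. Aldh1a3, the third retinal dehydrogenase, is not listed in the table used here, nor are Rdh1, Rdh12, Rdh16, Dhrs9, Adh7 and Sdr16c5. The enzymes that break retinoic acid down, Cyp26a1, Cyp26b1 and Cyp26c1, are not listed in it either, so that neither the breakdown nor the uptake of retinoids by Stra6 could be compared.

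Crabp2 (mm9 chr3:87752588-87757298, plus strand), which carries retinoic acid to its receptors, measured 0.694, 0.440 and 0.924 RPKM in Scx-/- replicates 1 to 3, 1.08 and 0.342 RPKM in Scx+/+ replicates 1 and 2, and the fill-in value of 0.0949 RPKM in Scx+/+ replicate 3. The highest and the lowest library were both Scx+/+. The log2 fold change of 0.70 had a standard error of 0.68 (interval -0.84 to 2.24, limma unadjusted p = 0.328, adjusted p = 0.967), and the 5 values above the fill-in stood for only 21 to 86 reads. It passed the threshold without Scx+/+ replicate 1, at 1.37 (limma, unadjusted p = 0.049).

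Of 9 other named genes of uptake, storage and binding 4 are listed and none was called. All 4 were above 0, beside 63.8% of all genes, and their median log2 fold change was 0.54 beside 0.105 for all genes. The 4 are imprecise or small: Ttr was at the fill-in value in 4 libraries, and Fabp5 had 0.20 (standard error 0.23). Rbp7 had 0.70 (standard error 0.80) although the ratio of its means was 1.01. Crabp1, a cellular retinoic acid-binding protein like Crabp2, measured 1.31, 1.32 and 0.543 RPKM in Scx-/- and 0.935, 0.0949 (the fill-in value) and 1.22 RPKM in Scx+/+ replicates. Its log2 fold change of 0.76 (standard error 0.73) became -0.10 without Scx+/+ replicate 2. Rbp4, Lrat, Rbp2, Bco1 and Bco2 are not listed in the table used here.

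Rara (mm9 chr11:98789132-98836256, plus strand) measured 1.56, 1.24 and 1.34 RPKM in Scx-/- and 1.72, 1.545 and 1.73 RPKM in Scx+/+ replicates. Scx-/- replicate 1 was just above Scx+/+ replicate 2 and the other values were separate. The log2 fold change was -0.26 (standard error 0.29, interval -0.91 to 0.39, limma unadjusted p = 0.389, adjusted p = 0.967). Rarg (mm9 chr15:102065369-102087948, minus strand) measured 0.726, 0.890 and 0.522 RPKM in Scx-/- and 0.527, 0.121 and 0.621 RPKM in Scx+/+ replicates. Its lowest value, in Scx+/+ replicate 2, stood for 23 reads, and the log2 fold change of 0.78 had a standard error of 0.56 (interval -0.50 to 2.06, limma unadjusted p = 0.199, adjusted p = 0.967).

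Rxra (mm9 chr2:27531960-27618477, plus strand), the shared partner of the retinoic acid receptors, measured 5.30, 3.42 and 3.00 RPKM in Scx-/- and 4.75, 3.05 and 4.11 RPKM in Scx+/+ replicates. The libraries of both genotypes were interleaved. Its log2 fold change was -0.044 with a standard error of 0.29 and an interval of -0.70 to 0.61 (limma, unadjusted p = 0.883, adjusted p = 0.996), from 774 to 1558 reads. The interval does not reach a log2 difference of 1 in either direction.

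Rarb and Rxrb, the other listed receptors, were not called. Rarb measured 5.66, 8.24 and 5.65 RPKM in Scx-/- and 6.21, 4.42 and 5.41 RPKM in Scx+/+ replicates (log2 fold change 0.27, standard error 0.24, limma unadjusted p = 0.284, adjusted p = 0.967). Scx-/- replicate 2 was the highest and the other 5 libraries overlapped. Rxrb measured 1.87, 1.45 and 1.06 RPKM in Scx-/- and 2.26, 1.35 and 1.20 RPKM in Scx+/+ replicates, and its log2 fold change was -0.10 (standard error 0.36). Rxrg is not listed in the table used here.

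The makeup of the receptors was read within each library from the per-length values. Rarb, which the choice of genes did not include, held 69.7% to 79.5% of the summed RPKM of Rara, Rarb and Rarg. Rara held 19.6%, 11.9% and 17.9% in Scx-/- and 20.4%, 25.4% and 22.3% in Scx+/+ replicates. These shares of Rara did not overlap and were 6.23 percentage points lower in Scx-/- samples (exact permutation p = 0.1, the smallest possible). The share of Rarg was 9.14%, 8.58% and 6.94% in Scx-/- and 6.23%, 1.98% and 8.0% in Scx+/+ replicates, and that of Rarb 71.3%, 79.5% and 75.2% against 73.4%, 72.6% and 69.7%. Both overlapped between genotypes (exact permutation p = 0.2 and 0.3). Rxra held 67.8% to 77.5% of the sum of Rxra and Rxrb, with a difference of 1.08 percentage points between genotypes (exact permutation p = 0.8). Adjusted by Benjamini-Hochberg over the 5 quantities read within libraries (the ratio of Aldh1a1 to Aldh1a2 and the shares of Rara, Rarb, Rarg and Rxra), the exact permutation p-values were 0.333 to 0.8.

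**Figure D3:**
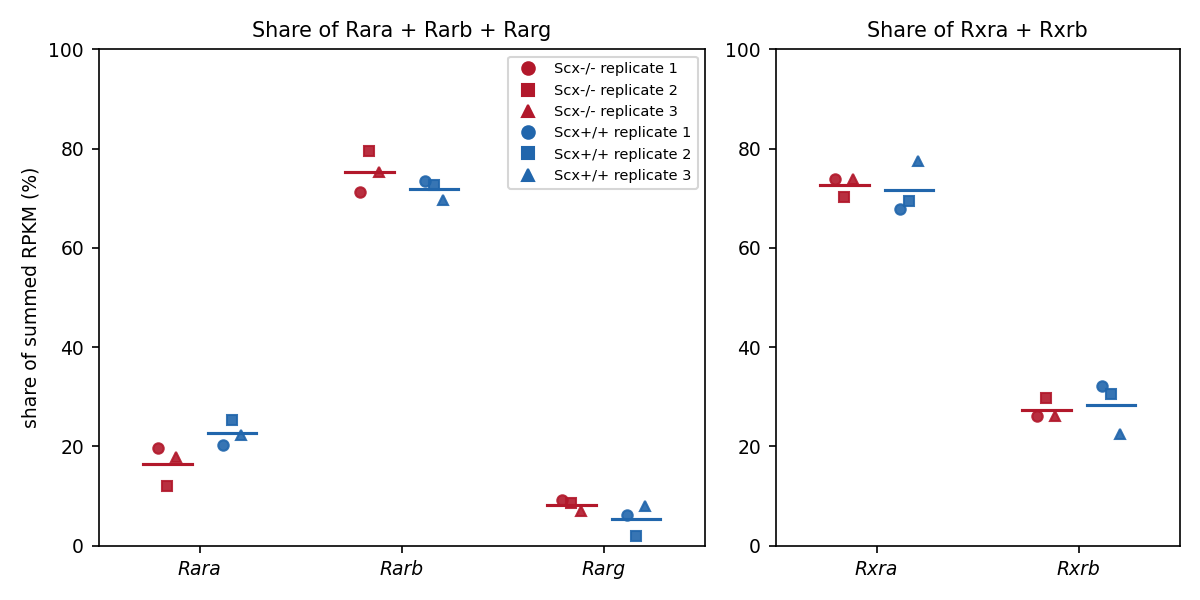
Share (%) of the summed RPKM of Rara, Rarb and Rarg (left) and of Rxra and Rxrb (right) held by each receptor in each library, with Scx-/- in red, Scx+/+ in blue and bars at the mean of 3 libraries. Rarb holds at least 69.7% of its sum in every library, and the share of Rara lies between 11.9% and 19.6% in Scx-/- and between 20.4% and 25.4% in Scx+/+ samples.

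Receptors act through cofactors: corepressors such as Ncor1 hold target genes down in the absence of retinoic acid, and Ep300, Crebbp and the Ncoa proteins activate them once it is bound. Of 11 cofactors listed none was called, and 2 of 11 were above 0, beside 63.8% of all genes. Their median log2 fold change was -0.11 beside 0.105 for all genes. With library medians set to 0 it was -0.22 beside -0.0045. Ep300, a histone acetyltransferase named here after its values were seen, measured 2.62, 2.20 and 1.41 RPKM in Scx-/- and 3.60, 2.38 and 4.58 RPKM in Scx+/+ replicates. Only Scx-/- replicate 1 exceeded a Scx+/+ library. Its log2 fold change of -0.73 (standard error 0.34) missed the threshold (limma, unadjusted p = 0.060, adjusted p = 0.967) and passed it with library medians set to 0, at -0.84 (unadjusted p = 0.033). Ncor1 measured 6.32 to 12.2 RPKM, with mixed genotypes and a log2 difference of -0.015 (standard error 0.27).

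Of 20 textbook target genes of retinoic acid, named outside the chosen retinoic acid genes, 5 are listed: Rarb, Nrip1, Tgm2, Meis1 and Meis2. None was called, 3 of 5 were above 0, and their median log2 fold change was 0.017 beside 0.105 for all genes, within a range of -0.14 to 0.28. The most abundant was Tgm2, a transglutaminase, at 37.9 to 48.5 RPKM in Scx-/- and 40.4 to 52.4 RPKM in Scx+/+ samples (log2 fold change -0.14, standard error 0.18). The named Hox genes, Cdx1, Lrat, Cyp26a1 and Cyp26b1 are not listed in the table used here. Across the 28 other listed genes of uptake, enzymes, receptors, cofactors and targets none was called in the reported fit. With library medians set to 0, Ep300 and Tbl1x passed the threshold as lower. Without Scx+/+ replicate 2 there were 6, of which Rbp7, Fabp5 and Rdh11 were higher and Ep300, Crebbp and Tbl1x lower; that fit called 1549 genes over the table, beside 731 with all libraries.

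**Figure D4:**
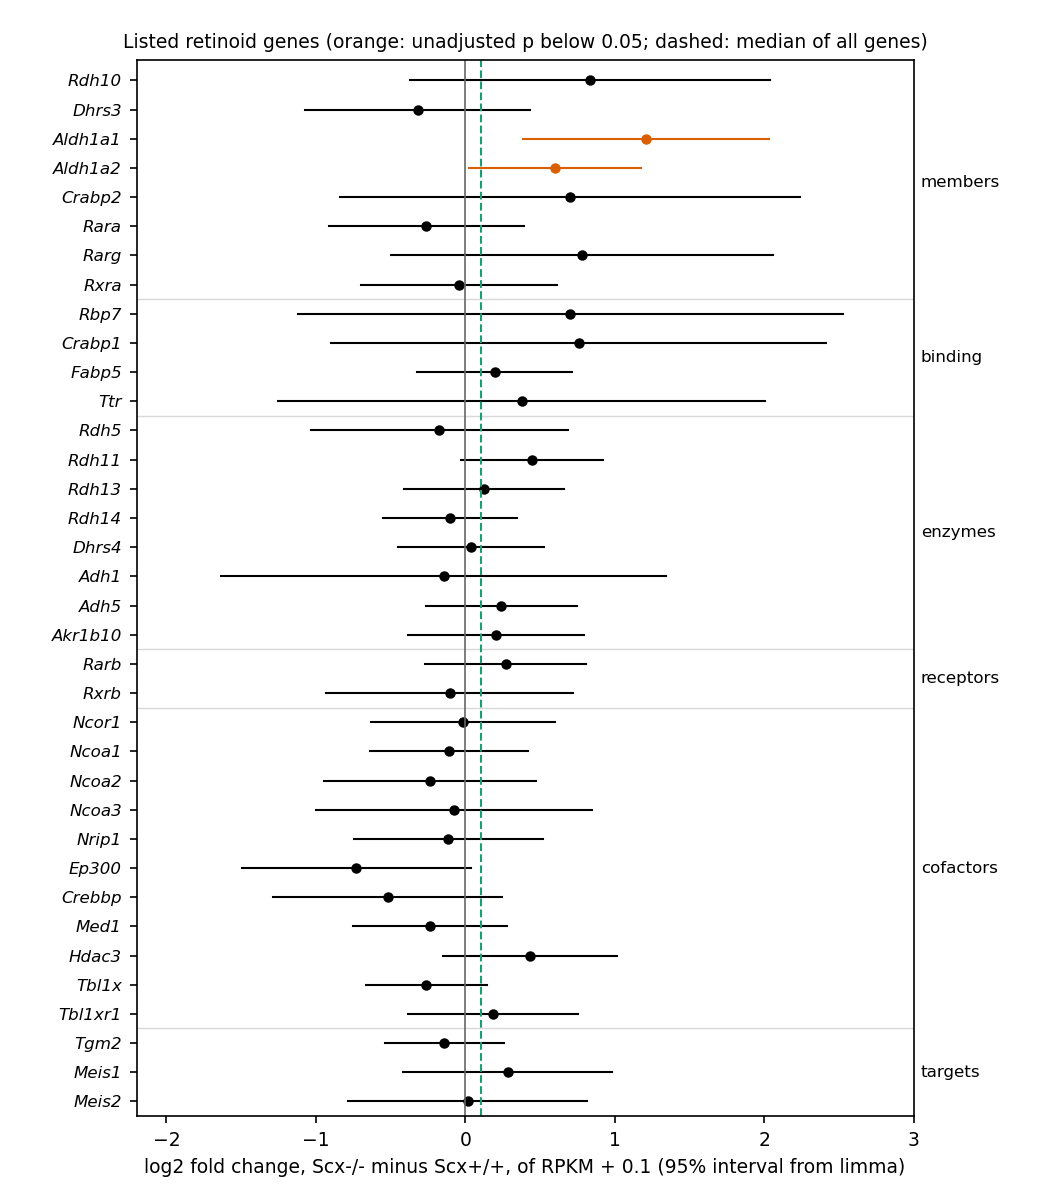
Log2 fold change of RPKM + 0.1 (Scx-/- minus Scx+/+) with its 95% interval from limma for the listed retinoid genes, grouped by role. Orange marks an unadjusted p below 0.05, the solid line 0 and the dashed line the median of all genes (0.105); the intervals of Aldh1a1 and Aldh1a2 lie above 0 and the others include it.

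By mean level over 6 libraries, the order was Rxra (3.94 RPKM), Aldh1a2 (3.70 RPKM), Aldh1a1 (2.39 RPKM), Dhrs3 (1.84 RPKM), Rara (1.52 RPKM), Rdh10 (1.02 RPKM), Crabp2 (0.597 RPKM) and Rarg (0.568 RPKM). Of neighbours in this order, only Aldh1a2 and Aldh1a1 kept their order in all 6 libraries. Rxra exceeded Aldh1a2 in 3 of 6 and Crabp2 exceeded Rarg in 3 of 6, so neither pair was separated. Rarb (5.93 RPKM) stood above all 8 genes and exceeded Rxra in 6 of 6 libraries.

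Among 10781 protein-coding genes that averaged 1 RPKM or more, likeness to each dehydrogenase was measured as the root mean square difference of centred log2 values over the 6 libraries. Nearest to Aldh1a1 were Dgcr6 (0.24), Syce2 (0.26), Tmco6 (0.30), Rnls (0.30) and C1qtnf2 (0.30). Nearest to Aldh1a2 were 5430437P03Rik (0.060), Spsb3 (0.064), Ring1 (0.069), Leng1 (0.075) and Fnta (0.079). The closest, 5430437P03Rik, followed Aldh1a2 at 24.9, 19.3 and 23.2 RPKM in Scx-/- and 16.5, 16.4 and 11.5 RPKM in Scx+/+ replicates. None of the 10 is a retinoid gene of the lists used here, and the likeness is a description over 6 libraries.

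Markers of the epicardium and mesothelium, where Aldh1a2 is known to be active, were examined beside the dehydrogenases. All 15 are listed, 12 of 15 were above 0 (63.8% of all genes), their median log2 fold change was 0.39 (0.28 with library medians set to 0), and 2 were called higher (2.82% of all genes). Tcf21, a transcription factor of the epicardial and fibroblast lineage, measured 8.61, 9.20 and 10.4 RPKM in Scx-/- and 5.09, 7.38 and 6.56 RPKM in Scx+/+ replicates (log2 fold change 0.57, limma unadjusted p = 0.023). Upk1b, a uroplakin of the mesothelium, measured 5.53, 5.17 and 3.81 RPKM in Scx-/- and 3.18, 3.63 and 2.56 RPKM in Scx+/+ replicates (log2 fold change 0.61, limma unadjusted p = 0.038). Neither gene overlapped between genotypes, and the adjusted p was 0.967 for both. With library medians set to 0 neither was called (limma, unadjusted p = 0.068 for Tcf21 and 0.051 for Upk1b), nor with length and GC trends removed, and Tcf21 was also lost after quantile normalization. Leaving out Scx-/- replicate 2, Scx-/- replicate 3 or Scx+/+ replicate 1 ended the call for Tcf21 (0.58, 0.50 and 0.42), and leaving out Scx-/- replicate 1, Scx-/- replicate 2, Scx+/+ replicate 1 or Scx+/+ replicate 3 that for Upk1b (0.51, 0.56, 0.63 and 0.48). The defining epicardial genes Wt1, Tbx18 and Upk3b had log2 fold changes of 0.15, 0.32 and 0.22 and were not called. Among the others, Msln (0.97), C3 (0.72), Krt8 (0.52), Rspo1 (0.50), Muc16 (0.49), Gpm6a (0.39) and Krt19 (0.25) were above 0, and Bnc1 (-0.13), Krt18 (-0.23) and Lrrn4 (-0.26) below. The summed RPKM of the 15 ranged from 46.7 to 60.0 in Scx-/- and from 37.5 to 47.1 in Scx+/+ samples.

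Relative to that sum, chosen as a denominator after the values were seen, Aldh1a2 was higher in Scx-/- samples by 0.28 on the log2 scale (exact permutation p = 0.5) and Aldh1a1 by 0.93 (exact permutation p = 0.2). The genotypes overlapped in both ratios. The part of the epicardial markers in the levels of Aldh1a1 and Aldh1a2 was not tested further.

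The remaining marker lists were given as counts beside the retinoid genes, against 2.82% of all genes called higher and 1.06% called lower. Of 13 markers of valve mesenchyme, Lum, a matrix proteoglycan, was higher (log2 fold change 0.85, limma unadjusted p = 0.0033) and Snai2, a factor of mesenchymal transition, lower (-0.80, limma unadjusted p = 0.047), with a median of 0.034. The 13 cardiomyocyte markers had a median of 0.078 with Ryr2 lower (-0.46). Although the dissection aimed at little myocardium, their summed level was 20810 to 29910 RPKM in Scx-/- and 18780 to 33560 RPKM in Scx+/+ samples, beside 658.7 to 868.8 and 573.4 to 654.2 RPKM for the valve mesenchyme list. Of 10 endothelial markers none was called and the median was -0.21. Of 5 listed melanocyte markers Mlana and Dct were higher: Mlana was at 1.20, 0.359 and 0.376 RPKM in Scx-/- replicates and no Scx+/+ library exceeded the fill-in value, and Dct had a log2 fold change of 0.90. Cd68 of the 8 macrophage markers was higher (1.48), and no listed marker of smooth muscle (5), erythroid cells (10), glia (3), liver (2) or cardiac neurons (2) was called. None of 6 lung and airway markers is listed. The highest cardiomyocyte sums were in Scx+/+ replicate 2 and Scx-/- replicate 3. Hbb-y, a haemoglobin gene picked after its values were seen, measured 1.99 and 1.17 RPKM in these libraries and 49.6 to 125 RPKM in the others. The summed erythroid list did not set these libraries apart, and what they share was not tested. In the 11 other settings that kept every library Lum was called in 10, Ryr2 in 9, Snai2 in 6 and Dct in 6, and Mlana was called in 9 and Cd68 in 6 of the 10 that gave a value. In the 6 fits that left out 1 library Lum and Mlana were called in 6, Cd68 in 3, and Snai2, Ryr2 and Dct in 2. The calls differ in reads, as Lum had 4636 to 16974. Mlana had 14 to 39 reads in Scx-/- samples, and its Scx+/+ values are 1 shared fill-in value without spread, so its p-values are unreliable. Cd68 had the fill-in value in Scx+/+ replicate 2 and 27 to 130 reads elsewhere. The adjusted p was 0.967 (limma) for each called marker, and the part of these cells in the retinoid results was not tested.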

How the data were processed

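RNA-seq of AVC regions from 3 Scx-/- and 3 Scx+/+ embryos was used, 1 library per embryo, grouped by the labels. Reads were aligned to mm9 with TopHat 1.4.1 (submitters' processing notes) and counted per Ensembl gene with easyRNASeq by the study. The authors state that RPKM were kept for genes with about 50 reads or more in some library. Mlana is in the table with at most 39 reads by the depth solved below, and the reason was not tested. Where a gene had 10 reads or fewer, the authors entered 1 shared value instead, 0.0949 RPKM in the table. This can understate or overstate differences of low genes. Gene names, positions and exon lengths came from the GENCODE mm9 annotation, which held 18695 of 18810 identifiers. Depth was solved from the steps of the RPKM values, giving whole reads within 0.1 for 98.45% to 98.57% of values under 1000 reads; no count test was run. The strand setting of the counting is not given in the sources used here.

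limma 3.58.1 (R 4.3.3) was fitted to log2(RPKM + 0.1) of all 6 libraries with an intensity trend and no covariate, two-sided, with Benjamini-Hochberg adjustment over 18810 genes; fold changes are on that scale. The call threshold was that of the study, an unadjusted p below 0.05. Single quantities were compared by exact permutation of 3 against 3 libraries, which cannot go below 0.1. The p-values measure only the spread between these libraries. The fit and the depth step were tested on simulated data. Libraries of the same replicate number did not vary closely together (correlation of deviations 0.09, -0.22 and -0.19). Across numbers, the highest correlation was 0.32, for Scx-/- replicate 3 with Scx+/+ replicate 2. The lowest was -0.26, for Scx-/- replicate 3 with Scx+/+ replicate 1. The deviations within a genotype are not independent of each other, so these correlations cannot exclude a pairing. Pairing by litter was not tested, as litters are not given in the sources used here. Other settings were pseudocounts of 0.01 and 1, an average of 1 RPKM or more (13827 genes), no trend, one-way analysis of variance on RPKM and log2 RPKM, quantile normalization, library medians set to 0, a replicate block, Xist as a covariate, removal of length and GC trends, and each library left out. Xist stood in for the sex of the embryo. It was at 21.7 RPKM in Scx-/- replicate 2, at 12.7 RPKM in Scx+/+ replicate 2 and at the fill-in value in the other libraries. Leaving out both Scx-/- replicate 3 and Scx+/+ replicate 2 was added after seeing the data. A few genes of the pathway lists are not reported here. The gene set, lists and tests were chosen with earlier results of these data known. Genes named were the members, the called or non-overlapping genes of the pathway lists, key genes by role, epicardial and called marker genes, Scx, and the 5 genes nearest to each dehydrogenase. Ep300 and Hbb-y were named after their values were seen. Python 3.11.15, numpy 2.4.6, pandas 2.3.3 and matplotlib 3.10.9 did the rest.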

Additional observations from a re-analysis of the deposited data

How the results depend on the processing

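The number of genes called over the table was 568 to 862 in the settings that kept every library, beside 731. Leaving out 1 library gave 539 to 1549, the highest without Scx+/+ replicate 2, and leaving out both Scx-/- replicate 3 and Scx+/+ replicate 2 gave 1587. Of all calls 72.6% were higher in Scx-/- samples in the reported fit, 49.9% after quantile normalization, 43.5% with library medians set to 0 and 42.3% with length and GC trends removed. The number of retinoic acid genes called fell from 2 to 1 under quantile normalization, library medians set to 0, the replicate block, Xist as a covariate and removal of length and GC trends, and was 0 to 2 with 1 library left out. In each of those 5 settings Aldh1a2 was the gene lost, at 0.54, 0.49, 0.60, 0.60 and 0.44 on the log2 scale; it was 0.73 and not called with both libraries left out, and 0.41 to 0.70 with 1 library left out. Aldh1a1 was 1.02 to 1.56 with 1 library left out and 1.74 with both left out. Rdh10 was 0.50 to 1.32 with 1 library left out and 0.98, past the threshold, with both left out; Crabp2 was 0.072 to 1.37 with 1 left out. Rxra changed sign with 1 library left out (-0.28 to 0.12). Other retinoid genes called numbered 1 after quantile normalization, 2 with library medians set to 0, 2 with length and GC trends removed, 4 with both libraries left out, and 0 to 6 with 1 left out (6 without Scx+/+ replicate 2), beside 0. Signs also turned for Crabp1 (-0.10 to 1.28 with 1 left out), Rxrb (-0.29 to 0.16 with 1 left out, 0.00027 with both left out) and Ncor1 (0.058 with length and GC trends removed, -0.32 to 0.15 with 1 left out). Scx was -0.044 after quantile normalization, -0.038 with medians set to 0, -0.023 with length and GC trends removed, -0.15 with both left out and -0.50 to 0.57 with 1 left out. The cause of these changes was not tested. The replicate block called 573 genes, 1 of them a retinoic acid gene, and changed no other call of a retinoic acid gene; the samples share only a number. Crabp2, Crabp1 and Rarg have no value at a mean of at least 1 RPKM. Among the retinoic acid genes, low reads limit the precision of Crabp2 (21 to 86 reads, with Scx+/+ replicate 3 at the fill-in value) and Rarg (23 to 245 reads). Of the marker calls, Snai2 was lost without Scx-/- replicate 2 or 3 or Scx+/+ replicate 1 or 3 (-0.98 to -0.50 over all 6 fits), Ryr2 without Scx-/- replicate 1 or 2 or Scx+/+ replicate 1 or 3 (-0.60 to -0.36), Dct without Scx-/- replicate 2 or 3 or Scx+/+ replicate 2 or 3 (0.58 to 1.19) and Cd68 without Scx-/- replicate 2 or 3 or Scx+/+ replicate 2 (1.01 to 1.79).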
